A study of Mus musculus with 28 samples.

Results

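Proteasome subunit genes were described in 28 RNA-seq libraries of the CA1 field of the mouse hippocampus. Members were all genes of the count files whose mouse symbol is Psma, Psmb, Psmc or Psmd followed by a number, which gave 39 of 48709 gene identifiers. Of these, 19 are core particle genes (Psma, Psmb) and 20 are counted as regulatory particle genes (Psmc, Psmd). The 20 include 3 assembly chaperones, Psmd5, Psmd9 and Psmd10. The groups were 9 transgenic vorinostat, 9 transgenic vehicle and 10 wildtype vehicle libraries. Transgenic mice carried CamkIIδC, a splice form of a kinase that responds to calcium. As background, the line is a heart failure model in which a heart muscle promoter drives the kinase, so brain levels do not check the genotype. Vorinostat, an inhibitor of histone deacetylases, or its vehicle was given in drinking water for 4 weeks from 2 months of age, and tissue was taken at 3 months. Wildtype mice were littermates and drank vehicle. No wildtype group with vorinostat was analysed here, so a drug difference outside the transgenic background was not measured. Mice of both sexes were used, and sex was not labelled per library. The labels do not state that each library is a separate animal. The p-values therefore rest on differences between libraries, some of which may be technical.

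The proteasome is the main protease of the cytosol and nucleus and cuts proteins that carry a ubiquitin chain. Its core particle is a barrel of stacked rings, with outer alpha rings (Psma) that gate the entrance and inner beta rings (Psmb) that hold the proteolytic sites. The regulatory particle has a base of ATPases (Psmc) and large scaffold subunits (Psmd), which unfold the substrate, and a lid of further Psmd subunits, which removes the ubiquitin chain. In neurons this machinery takes part in protein turnover at synapses. In many cells its subunit genes share an induced response through the transcription factor Nfe2l1.

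Libraries held 20230085 to 33191857 counts. CPM below is the count of a gene scaled to library size with TMM factors. Of marker genes, 6 CA1 pyramidal genes summed to 1278 to 1891 CPM in vorinostat libraries, 1511 to 1913 in transgenic vehicle and 1475 to 1910 in wildtype vehicle. In the same order, 7 dentate granule genes summed to 83.8 to 138, 89.3 to 175 and 78.8 to 175 CPM. Sums of different lists do not measure shares of cells, and markers of other neighbouring fields were not used, so the tissue label was not tested. Before any group result, 4 libraries have to be set apart: vorinostat 6, 7 and 9 and wildtype vehicle 2 had 6.39 to 7.48% of their counts in mitochondrially encoded genes, against 2.84 to 4.11% in the other 24. Their hemoglobin transcripts summed to 75.9 to 135 CPM, against 16.9 to 52.1 in the other 24. Results that rest on them are given with and without them. In bulk tissue, fewer cells of a type and less RNA per cell cannot be told apart.

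Transcripts of all standard subunits of the proteasome were detected in CA1. Of the 39 genes, 37 passed the low-count filter of the test (17 core and 20 regulatory), and Psma8 and Psmb11 did not. Levels between genes were compared as CPM per kilobase of annotated exon, as means in wildtype vehicle libraries (n = 10). The highest was Psmc5, an ATPase of the base, at 94.1 ± 9.12 (SD), ahead of Psma6, an alpha ring subunit, at 57.4 ± 8.23 and Psmc3, another ATPase, at 53.4 ± 4.81. The 14 standard core genes ranged over 6.24 to 57.4 with a median of 22.9, and the 17 regulatory genes other than assembly chaperones over 7.98 to 94.1 with a median of 27.3. Psmc5 stood apart, whereas Psma6, Psmc3, Psmb4 at 53.2 and Psmc1 at 53.1 differed from each other by less than their spread.

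The order of levels depended in part on the length used. With the length of the principal transcript in place of all annotated exons, a choice made after seeing the data, 7 of the 10 highest genes were the same. Psmc5 was again first, at 99.7, while Psma6 was at 68.0 and Psmb6 at 87.1. Among tested genes the lowest were Psmb9 and Psmb8 with either length. Copies of some members elsewhere in the genome limit these levels: 9 of the 39 genes shared over 10% of their possible 50-base reads with other annotated genes. The largest shares were 54.1% for Psmb5, which has a pseudogene, Psmb5-ps, and 50.0% for Psma5. Counts of both are uncertain, since the treatment of reads that match several genes is not given in the sources used here.

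**Figure D1:**
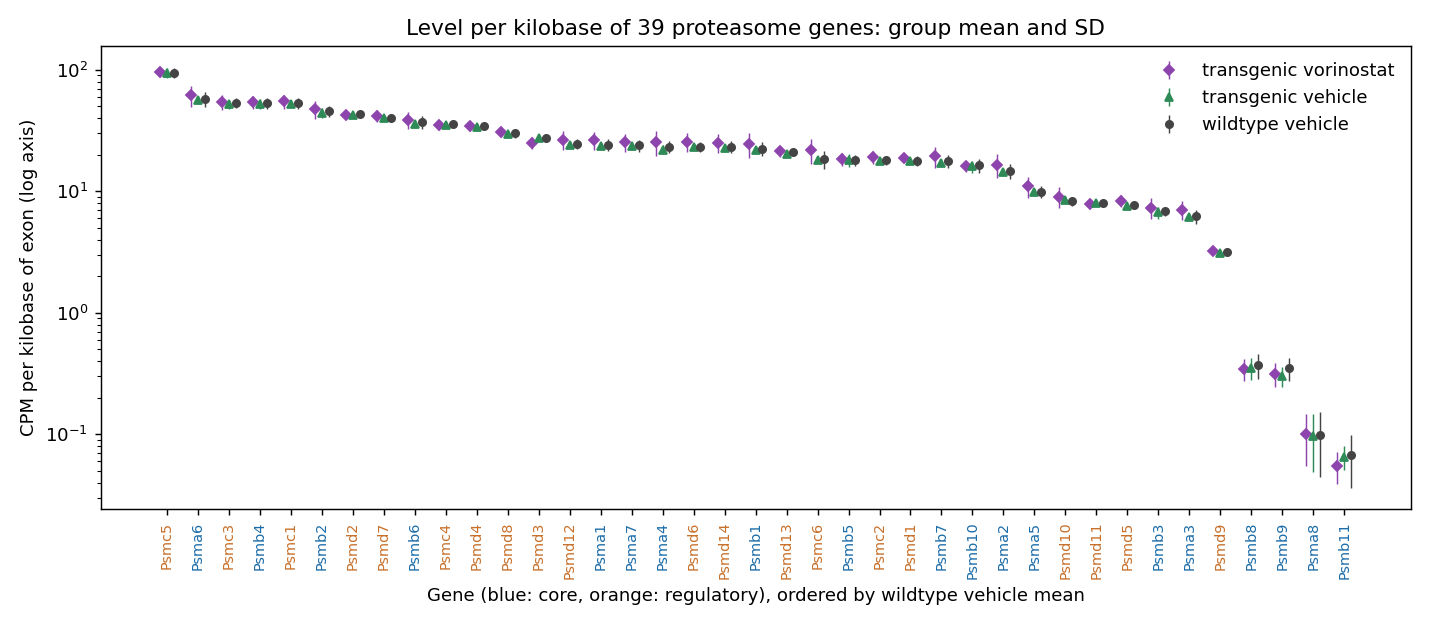
Level of each of the 39 proteasome genes as CPM per kilobase of annotated exon on a log axis, with points for group means and bars for SD (9 transgenic vorinostat, 9 transgenic vehicle, 10 wildtype vehicle libraries). The standard subunits lie between 6.24 and 94.1 in wildtype vehicle. The assembly chaperone Psmd9 lies at 3.17, and the inducible Psmb8 and Psmb9 lie at 0.374 and 0.350.

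Among catalytic subunits in wildtype vehicle, the standard Psmb6, Psmb5 and Psmb7 were at 37.1, 18.1 and 17.8 CPM per kilobase of annotated exon. The inducible Psmb10 was close to Psmb5 and Psmb7, at 16.4, and Psmb8 and Psmb9 were far below, at 0.374 and 0.350. Psmb5, Psmb6 and Psmb7 carry the proteolytic sites of the standard core. In immune cells and after interferon, Psmb8, Psmb9 and Psmb10 take the places of Psmb5, Psmb6 and Psmb7. Psmb8 had 0.782, 1.23 and 1.54 CPM as lowest, median and highest in vorinostat libraries, 0.798, 1.26 and 1.44 in transgenic vehicle and 0.787, 1.25 and 1.75 in wildtype vehicle. Psmb9 had 0.717, 1.20 and 1.61 CPM in vorinostat, 0.905, 1.01 and 1.44 in transgenic vehicle and 0.849, 1.21 and 1.87 in wildtype vehicle. The groups overlapped for both genes, and the highest value of both was that of wildtype vehicle 5, which is not among the 4 libraries set apart.

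Per kilobase, Psmb8 was at 1.88 ± 0.352% of Psmb5 in vorinostat libraries, 1.99 ± 0.528% in transgenic vehicle (SD, n = 9 each) and 2.07 ± 0.436% in wildtype vehicle (SD, n = 10). Psmb9 was at 0.826 ± 0.207%, 0.842 ± 0.163% and 0.949 ± 0.202% of Psmb6 in the same order of groups. Psmb10 was at 84.6 ± 8.92%, 93.2 ± 9.90% and 92.5 ± 11.2% of Psmb7. Differences between groups in these ratios were within 1 SD. The ratio of Psmb10 depended on the length used: per kilobase of the principal transcript it was at 21.3 and Psmb7 at 52.5 CPM in wildtype vehicle. The inducible set had no shared level with either length, with Psmb10 closest to its standard counterpart and the pair Psmb8 and Psmb9, which are near neighbours on chromosome 17, far below theirs. Psmb9 shares 4.19% of its possible reads with Tap1, which overlaps it, and Psmb8 shares 11.9% with other genes.

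The tissue-restricted core subunits were near the limit of detection. Psma8, a form of the alpha ring known from the testis, had 0 to 0.494 CPM over all libraries, and its 0 of 20230085 counts in wildtype vehicle 4 allows up to 0.148 CPM, taking 3 counts as the limit for a count of 0 and covering counting error only. Psmb11, a thymus form of the chymotrypsin-like subunit, had 0.0874 to 0.644 CPM. Neither was tested.

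Between groups, no proteasome gene passed the threshold in any comparison, and the same held for all genes. With edgeR's quasi-likelihood test and Benjamini-Hochberg adjustment at 0.05, 0 of 37 members were called for vorinostat against transgenic vehicle, 0 for vorinostat against wildtype vehicle and 0 for transgenic against wildtype vehicle, where percent called over all 17009 genes was 0 in each. The test of any difference among the 3 groups called 0 members as well, at 0% of all genes, and 3 members had an unadjusted p under 0.05, against 8.84% of all genes. For vorinostat against transgenic vehicle, 6 of 37 members had an unadjusted p under 0.05, where 14.4% of all genes did. Of these 5 were higher, against 7.75% of all genes, and 1 lower, against 6.64%. For vorinostat against wildtype vehicle it was 3 members against 12.6%, with 2 higher against 6.87% and 1 lower against 5.71%. For transgenic against wildtype vehicle it was 0 members against 1.33%, of which 0.67% were higher and 0.664% lower. The members' shares lay near the background. DESeq2 and limma voom called 0 members in the 3 comparisons, and DESeq2 called 1 gene in all, for vorinostat against transgenic vehicle. In each comparison the groups' ranges of CPM overlapped for all 37 genes, and percent not overlapping over all 17009 genes was 0 in each as well.

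Vorinostat against transgenic vehicle addresses what the drug changes in this model. Log2 fold changes were positive for 32 of 37 members, against 50.9% of all genes, with a median of 0.10 against 0.0034 over all genes. All 7 alpha ring genes had positive values, from 0.11 to 0.21, as had the 4 standard beta ring genes without a catalytic site and the 3 with one. The 6 ATPases of the base ranged from -0.0038 to 0.26 and the 8 lid genes from -0.13 to 0.15. The smallest adjusted p of any member was 0.345 by edgeR. Without vorinostat 7 the median was 0.0504.

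Psmc6 (ENSMUSG00000021832; GRCm38 chr14:45329788-45349705, plus strand), an ATPase of the base, had the largest difference. It had 60.5, 67.5 and 107 CPM as lowest, median and highest in vorinostat libraries, 60.5, 64.2 and 66.5 in transgenic vehicle and 52.6, 61.8 and 92.7 in wildtype vehicle. Its 4 highest values were those of the 4 libraries set apart, at 92.7 to 107 CPM, and the other 24 lay between 52.6 and 69.98. The log2 fold change was 0.26 (SE 0.103; edgeR adjusted p = 0.345) against transgenic vehicle and 0.25 (SE 0.0999; edgeR adjusted p = 0.384) against wildtype vehicle.

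Psmd5 (ENSMUSG00000026869; GRCm38 chr2:34849734-34874968, minus strand), a chaperone that binds the base during assembly and is not part of the finished particle, had the smallest p among members for vorinostat against transgenic vehicle. It had 52.8, 59.6 and 71.7 CPM in vorinostat libraries, 51.1, 54.9 and 59.5 in transgenic vehicle and 48.7, 55.4 and 62.2 in wildtype vehicle. The 4 libraries set apart, at 62.2 to 71.7 CPM, overlapped the upper end of the other 24, whose highest value was 62.5. Its log2 fold change was 0.15 (SE 0.0552; edgeR adjusted p = 0.345) against transgenic vehicle and 0.11 (SE 0.0538; edgeR adjusted p = 0.400) against wildtype vehicle.

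Among alpha ring genes, Psma3 had 23.03, 24.9 and 36.3 CPM in vorinostat libraries, 22.3, 24.4 and 25.2 in transgenic vehicle and 20.8, 23.7 and 32.3 in wildtype vehicle. Psma4 had 49.2, 52.6 and 85.0 CPM in vorinostat, 43.8, 51.7 and 59.9 in transgenic vehicle and 49.9, 54.4 and 72.9 in wildtype vehicle. Psma1 had 63.5, 73.3 and 101 CPM in vorinostat, 64.2, 69.0 and 75.1 in transgenic vehicle and 63.4, 70.0 and 93.4 in wildtype vehicle. Group medians lay close together for the 3 genes, and the high end in the vorinostat and wildtype groups was set by the libraries set apart. Log2 fold changes against transgenic vehicle were 0.18 (SE 0.0807), 0.21 (SE 0.0972) and 0.17 (SE 0.0771), with an edgeR adjusted p of 0.345 for each.

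Psmd3 (ENSMUSG00000017221; GRCm38 chr11:98682554-98695979, plus strand), a lid subunit, went the other way. It had 105, 131 and 141 CPM in vorinostat libraries, 126, 136 and 149 in transgenic vehicle and 123, 137 and 153 in wildtype vehicle. All 4 libraries set apart, at 105 to 123 CPM, were below the other 24, at 125 to 153. Its log2 fold change was -0.13 (SE 0.0562; edgeR adjusted p = 0.345) against transgenic vehicle and -0.12 (SE 0.0548; edgeR adjusted p = 0.391) against wildtype vehicle.

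**Figure D2:**
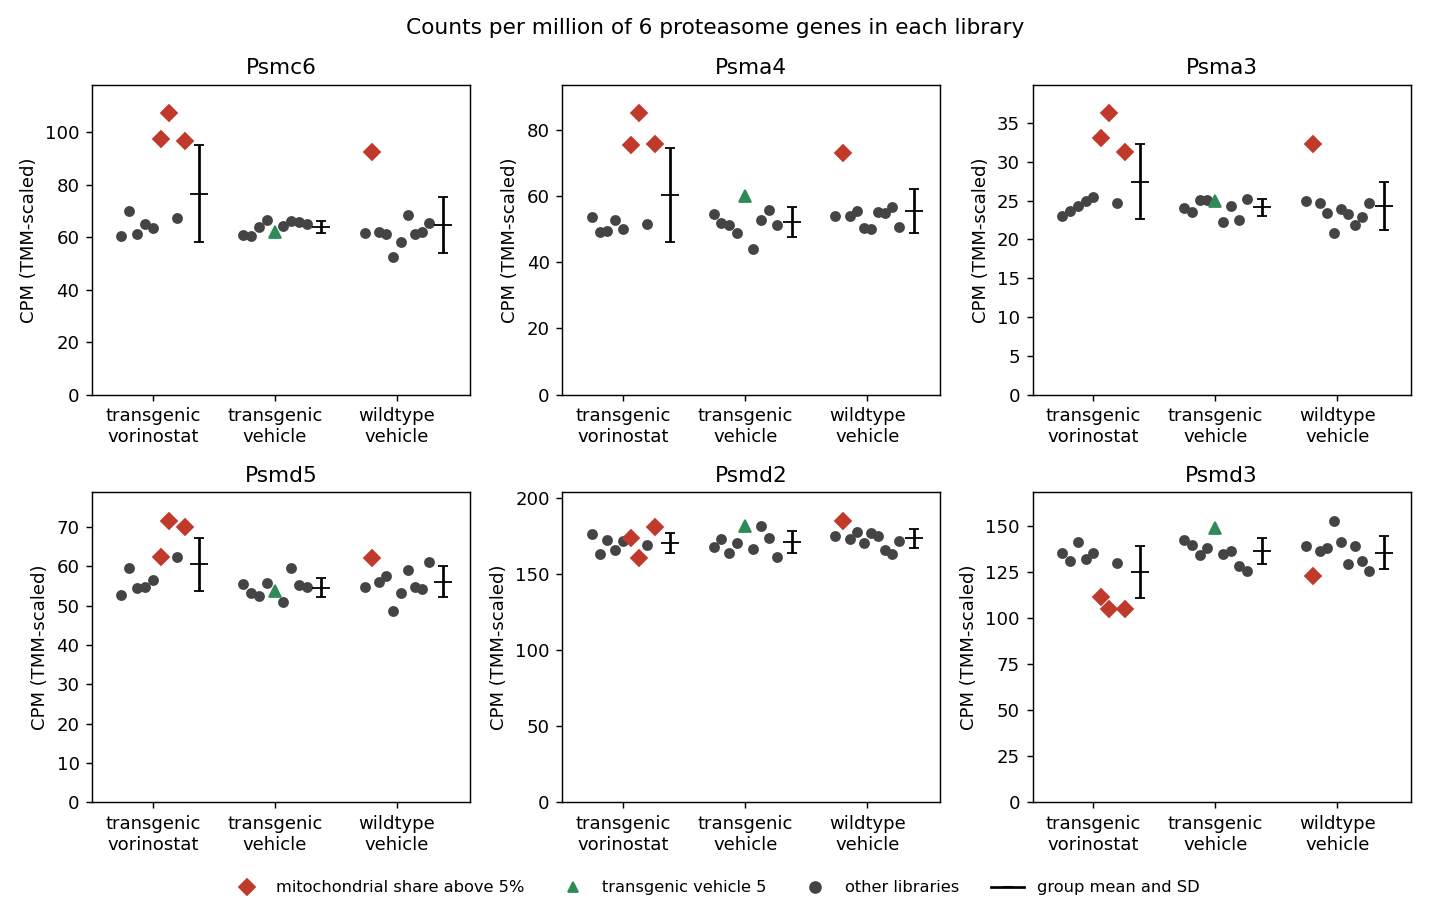
CPM of 6 proteasome genes in each library, with 1 point per library and the group mean and SD beside it (9 transgenic vorinostat, 9 transgenic vehicle, 10 wildtype vehicle). Red diamonds mark the 4 libraries with a mitochondrial share above 5%, which lie at 92.7 to 107 CPM for Psmc6 against 52.6 to 69.98 in the others, and below the others for Psmd3.

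Vorinostat against wildtype vehicle addresses whether treated transgenic mice differ from untreated controls. It shares the vorinostat libraries with the previous comparison, so the values stand side by side and no likeness is read from them. Here 29 of 37 members were positive, against 51.7% of all genes, with a median of 0.059 against 0.0065 over all genes. Without vorinostat 7 the median was 0.0200, and without wildtype vehicle 2 it was 0.106. Psma3, at 0.18 (SE 0.0786; edgeR adjusted p = 0.384), Psma2, at 0.17 (SE 0.0910; edgeR adjusted p = 0.411), and Psma5, at 0.15 (SE 0.0858; edgeR adjusted p = 0.419), had the smallest p of core genes. Psmc6, Psmd3 and Psmd5 had the smallest of regulatory genes. The inducible Psmb8 and Psmb9 had negative values of -0.12 (SE 0.150) and -0.16 (SE 0.141), each about the size of its error.

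Transgenic against wildtype vehicle addresses how CA1 of this heart failure model differs without the drug. Members differed little: 6 of 37 were positive, against 50.1% of all genes, with a median of -0.022 against 0.00013 over all genes, and every edgeR adjusted p rounded to 1. Psmb9 had the largest difference, -0.22 (SE 0.141), on 0.905 to 1.44 CPM in transgenic vehicle and 0.849 to 1.87 CPM in wildtype vehicle libraries. Psma4 was at -0.085 (SE 0.0948) and Psmb2, a beta ring subunit without a catalytic site, at -0.050 (SE 0.0779). Of regulatory genes, Psmd5 was at -0.039 (SE 0.0539), the lid gene Psmd13 at -0.036 (SE 0.0536) and the ubiquitin receptor Psmd4 at -0.034 (SE 0.0509). The count of positive members rested on wildtype vehicle 2: without it 25 of 37 were positive, with a median of 0.00967. The count was 10 without transgenic vehicle 6, 3 without transgenic vehicle 5 and 2 without wildtype vehicle 10.

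Without the 4 libraries set apart, the pattern of signs was different in every comparison. For vorinostat against transgenic vehicle 7 of 37 members were positive, with a median of -0.0427, against -0.0033 over all genes. For vorinostat against wildtype vehicle it was 9 members and -0.0267, and for transgenic against wildtype vehicle 26 members and 0.0113. Among the genes described above Psma4 changed sign against transgenic vehicle, to -0.0342, and Psmc6, Psma3 and Psmd5 were at 0.0137, 0.0110 and 0.0522. Psma1 was at 0.00659 and Psmd3 at -0.0287 in that comparison. For vorinostat against wildtype vehicle Psmc6 was at 0.0733, Psma3 at 0.0578, Psmd5 at 0.0323, Psmd3 at -0.0324, Psma2 at 0.00926 and Psma5 at 0.00479. For transgenic against wildtype vehicle Psmb9 was at -0.232, and Psma4, Psmb2, Psmd5, Psmd13 and Psmd4 lay between -0.0317 and -0.00551. With the mitochondrial share as a covariate the counts were 16, 14 and 14 of 37 and the medians -0.00485, -0.00913 and -0.00428. The number of called members was 0 in both settings.

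**Figure D3:**
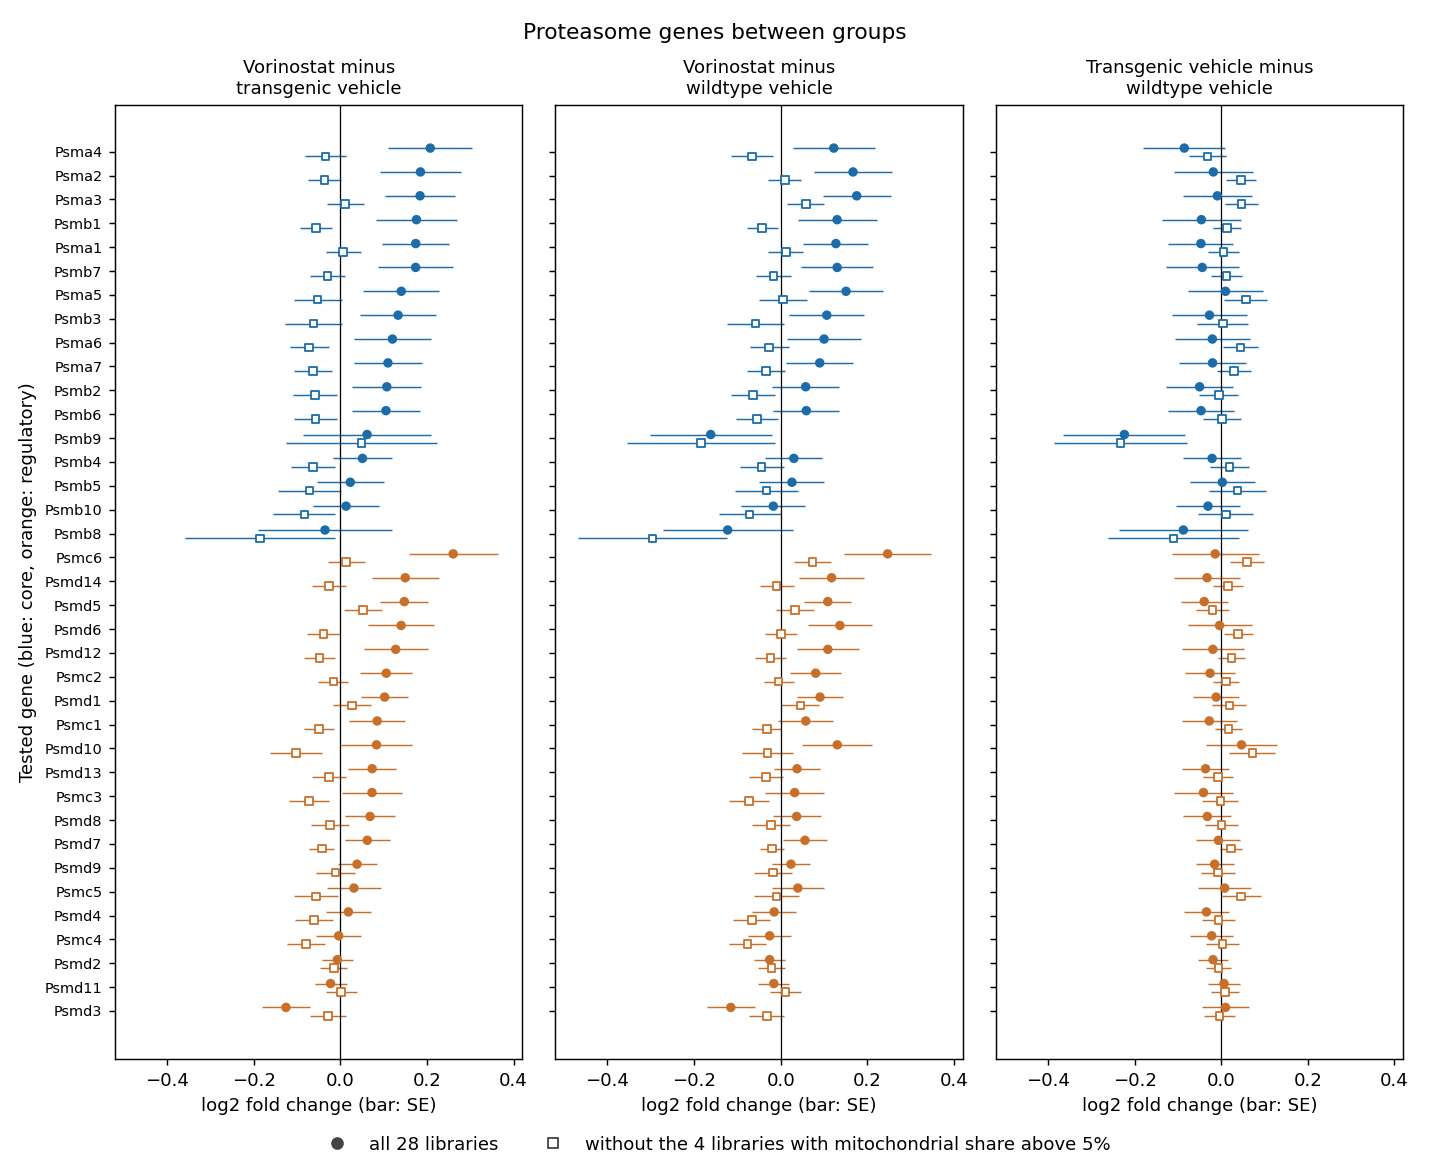
Log2 fold change of the 37 tested proteasome genes in the 3 comparisons, with filled circles for all 28 libraries, open squares for the fit without the 4 libraries with a high mitochondrial share, and bars for 1 SE. For vorinostat against transgenic vehicle 32 genes are positive with all libraries and 7 without the 4.

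The main difference among libraries was that of vorinostat 6, 7 and 9 and wildtype vehicle 2 from the rest. No transgenic vehicle library was among these 4, so they fall unevenly over the groups. Whether the drug had a part in this difference was not tested. Core genes together took 0.107 to 0.118% of counts in the 4 libraries set apart and 0.0730 to 0.0926% in the other 24. Regulatory genes took 0.203 to 0.207% against 0.164 to 0.188%. Neither range overlapped. As mean log2 CPM over the 17 tested core genes, the 4 libraries were at 5.17 to 5.33 and the other 24 at 4.69 to 5.06, and over the 20 regulatory genes at 6.43 to 6.49 against 6.15 to 6.33. The core level moved further than the regulatory level: the mean of core minus that of regulatory genes was -1.26 to -1.16 in the 4 and -1.46 to -1.26 in the 24.

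By group, the core level was 4.95 ± 0.222 in vorinostat, 4.85 ± 0.0967 in transgenic vehicle and 4.89 ± 0.122 in wildtype vehicle, as mean log2 CPM ± SD. The regulatory level was 6.28 ± 0.134, 6.22 ± 0.0510 and 6.23 ± 0.0822. Without the 4 libraries these were 4.81 ± 0.0300, 4.85 ± 0.0967 and 4.85 ± 0.0484 for core genes and 6.19 ± 0.0205, 6.22 ± 0.0510 and 6.20 ± 0.0196 for regulatory genes. Differences between groups were smaller than the spread within at least 1 of the groups compared, with and without these libraries.

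**Figure D4:**
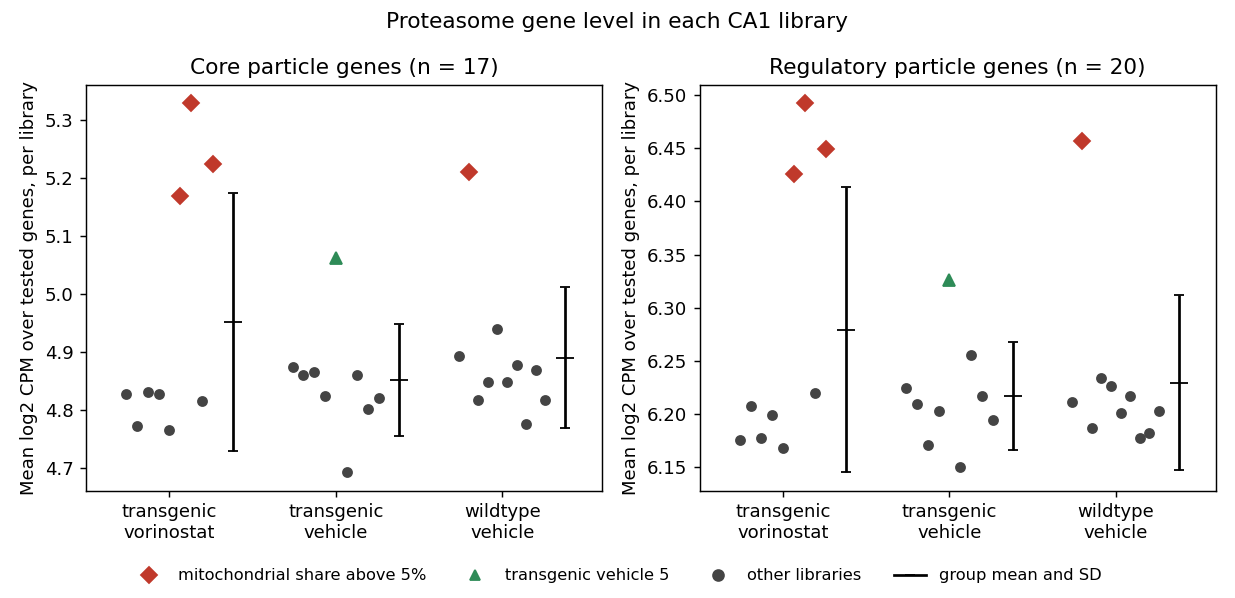
Mean log2 CPM over the 17 tested core genes (left) and the 20 regulatory genes (right), with 1 point per library in each group and the group mean and SD beside it. The 4 libraries with a mitochondrial share above 5% lie at 5.17 to 5.33 for core genes against 4.69 to 5.06 for the other 24, and transgenic vehicle 5 is the highest of those 24.

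Gene by gene, 18 of 37 members had all 4 of these libraries above all other 24 (10 of 17 core, 8 of 20 regulatory), where 9.99% of all genes tested did. In the opposite direction it was 1 member, Psmd3, where 11.2% of all genes did. The mean difference in log2 CPM was positive for 35 of 37 members, against 51.9% of all genes, with medians of 0.43 for core and 0.26 for regulatory genes against 0.017 for all genes. The largest differences were those of Psmc6, 0.64, Psma4, 0.56, Psma2, 0.55, and Psmb1, a beta ring subunit without a catalytic site, 0.55. The smallest in size were those of Psmb9, 0.020, and Psmd2, 0.030, a scaffold subunit of the base, and Psmd11, a lid subunit, was at -0.059.

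Of the marker lists, only the red blood cell list had sums that did not overlap between these libraries and the other 24. In the 4 libraries the red blood cell list summed to 77.4 to 135 CPM against 17.95 to 57.1 in the other 24, and the microglia list to 295 to 352 against 240 to 328. The CA1 pyramidal list summed to 1278 to 1653 CPM against 1475 to 1913, the astrocyte list to 2324 to 3059 against 2013 to 2582, the oligodendrocyte list to 4099 to 7139 against 3252 to 7366 and the pan-neuronal list to 4275 to 4877 against 3880 to 4991. Endothelial genes summed to 104 to 176 CPM against 131 to 186 and choroid plexus genes to 15.4 to 73.9 against 7.73 to 106. Single markers, named after their values were seen, could differ from their list's sum. The endothelial Flt1 was at 18.63 to 39.29 CPM in the 4 libraries against 46.57 to 70.56 in the other 24, and Cdh5 at 2.603 to 5.735 against 6.202 to 12.53. Itm2a of the same list was at 37.7 to 49.7 CPM against 26.26 to 36.94. All 4 libraries were above the other 24 for 3 of 5 red blood cell markers and 1 each of the astrocyte (Gja1), microglia (P2ry12), pan-neuronal (Stmn2) and endothelial markers. They were below for Rbfox3, a pan-neuronal marker, and for the endothelial Flt1 and Cdh5. Over all genes tested, 9.99% had all 4 libraries above the other 24 and 11.2% had all 4 below. No listed marker was at 0 in all libraries. The part of cell makeup, blood or RNA quality in the proteasome values was not tested.

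Base composition moved with the difference as well. Across the 37 members the difference of the 4 libraries from the other 24 was lower at a higher GC content of the principal transcript (r = -0.632, rho = -0.661, all members measured in the same libraries), as it did across all tested genes (r = -0.581). Psmc6, with the lowest GC content of the members at 36.97%, had the largest difference, and Psmd3, with the highest at 58.3%, the lowest. Members were also short, with 20 of 37 in the shortest quintile of tested transcripts. Across the 37 members the relation of the difference to log transcript length was weaker than that to GC content (r = -0.287, rho = -0.264). After a correction of each library for GC content and length, chosen after seeing the data, the median difference was 0.19 for core and 0.10 for regulatory genes, 33 of 37 were positive and 12 lay above all other 24. The median log2 fold change for vorinostat against transgenic vehicle was then 0.0435, against 0.0025 over all genes, with 32 of 37 members positive. Against wildtype vehicle it was 0.0203, against 0.0038 over all genes, with 31 members positive. Shares of all genes after this correction are not given here. The counts of members after it therefore have no background and are not read as particular to proteasome genes.

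Transgenic vehicle 5, which has a mitochondrial share of 3.91%, was the highest of the other 24 libraries for both particles. Against the other 23, 34 of 37 members were higher in it, where 50.4% of all genes were, with a median difference of 0.25 for core and 0.13 for regulatory genes. The order of genes was not that of the 4 libraries. Psmb10 (0.38) and the ATPase Psmc5 (0.37) had the largest differences, and Psmd1, a scaffold subunit of the base, at -0.17, Psmd5 at -0.048 and Psmc6 at -0.023 were lower. Here the difference was higher at a higher GC content (r = 0.471, rho = 0.515) and lower at a greater log transcript length (r = -0.754, rho = -0.724) across the 37 members.

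**Figure D5:**
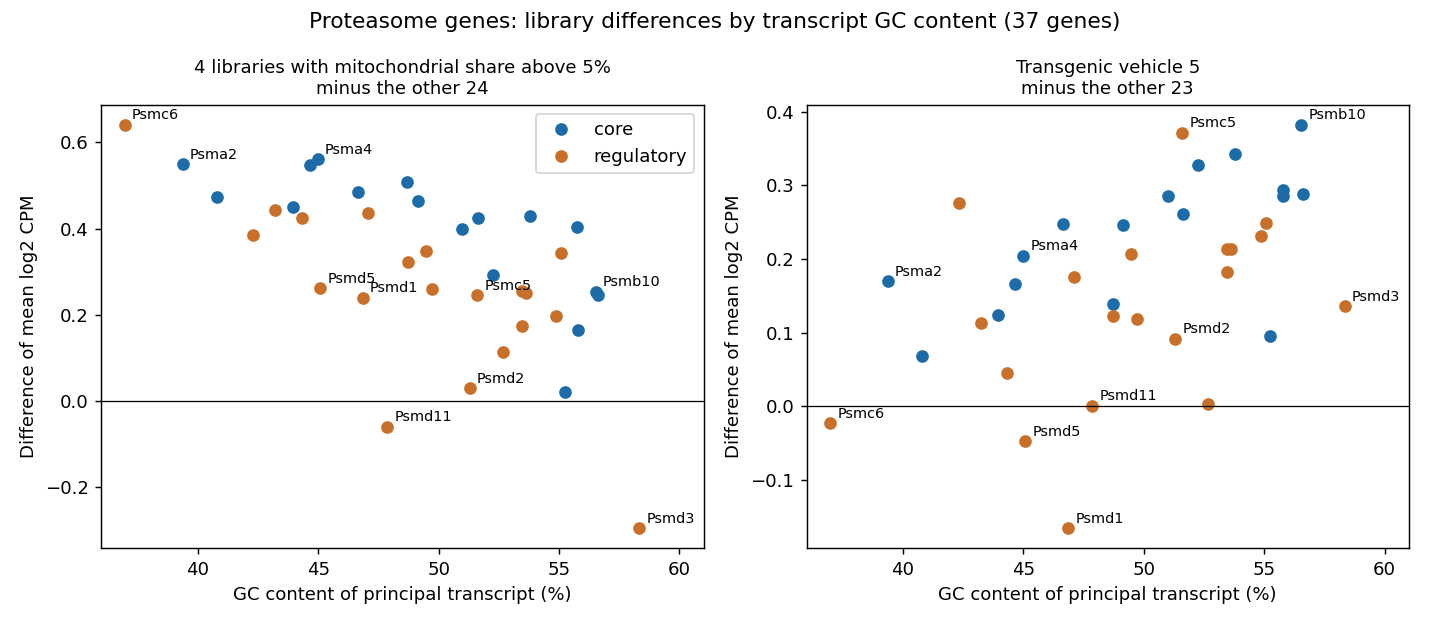
Difference in mean log2 CPM of each of the 37 tested proteasome genes against the GC content of its principal transcript, for the 4 libraries with a high mitochondrial share minus the other 24 (left) and for transgenic vehicle 5 minus the other 23 (right). The relation falls on the left (r = -0.632) and rises on the right (r = 0.471).

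Members varied in how far they moved between libraries of a group. The smallest within-group SD of log2 CPM over all 28 libraries was 0.0553 for Psmd2, then 0.0622 for Psmd11 and 0.0806 for the chaperone Psmd9. The largest was 0.312 for Psmb8 and 0.280 for Psmb9, both at low counts, and 0.227 for Psmc6. Psmd2 had 161, 172 and 181 CPM in vorinostat libraries, 161, 170 and 182 in transgenic vehicle and 163, 174 and 185 in wildtype vehicle. These narrow and overlapping ranges gave log2 fold changes of -0.0069 (SE 0.0358) against transgenic vehicle and -0.026 (SE 0.0349) against wildtype vehicle for the vorinostat libraries. Over all members the median SD was 0.164 with all libraries and 0.0780 without the 4, against 0.142 and 0.101 for the 7969 genes of like level, from 4 to 8 log2 CPM.

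Subunit genes moved together across the 28 libraries, for the most part through the libraries already named. Over deviations from group means in 28 libraries, the median correlation was 0.803 between pairs of core genes, 0.639 between pairs of regulatory genes and 0.724 between the 2 kinds. In the 24 libraries these were 0.336, 0.259 and 0.303, and also without transgenic vehicle 5 they were 0.166, 0.121 and 0.144. Psmd3 and Psmd11 went against the rest over 28 libraries, with median correlations to the other members of -0.591 and -0.21. Psmc6 and Psmd1 had the lowest medians in the 24 libraries, -0.211 and -0.229. Also without transgenic vehicle 5, Psmc6 was at -0.182 and Psmd1 at -0.0625. The points share libraries and their depth, and the correlations are a description. Pairs of other genes are not given beside them, so moving together is not shown to be particular to proteasome genes.

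Psmd10 and Psmd9 are the other assembly chaperones of the base that the symbol rule takes in. Psmd10, gankyrin, had 9.81, 12.3 and 17.7 CPM in vorinostat libraries, 11.6, 12.4 and 14.5 in transgenic vehicle and 10.5, 12.1 and 13.96 in wildtype vehicle. Psmd9 had 21.8, 22.98 and 26.4 CPM in vorinostat, 21.8, 22.3 and 25.0 in transgenic vehicle and 21.1, 22.7 and 26.7 in wildtype vehicle. Both overlapped between groups. Their log2 fold changes against transgenic vehicle were 0.084 (SE 0.0830) and 0.039 (SE 0.0450). Psmd9 shares 24.9% of its possible reads with other genes.

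Of the standard catalytic subunits, Psmb7 had 56.8, 58.6 and 87.3 CPM in vorinostat libraries, 51.7, 58.2 and 64.2 in transgenic vehicle and 55.2, 58.9 and 81.2 in wildtype vehicle. Psmb6 had 61.5, 68.4 and 89.7 CPM in vorinostat, 62.9, 66.1 and 80.5 in transgenic vehicle and 60.8, 67.0 and 89.6 in wildtype vehicle. Psmb5 had 14.5, 16.5 and 20.4 CPM in vorinostat, 13.5, 16.9 and 19.2 in transgenic vehicle and 13.9, 15.9 and 19.7 in wildtype vehicle. The groups overlapped for each of the 3. Against transgenic vehicle the log2 fold changes of the vorinostat libraries were 0.17 (SE 0.0859), 0.11 (SE 0.0777) and 0.023 (SE 0.0770), and that of Psmb10 was 0.013 (SE 0.0761).

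Other genes of the pathway gave no called difference either. Of 37 tested genes outside the symbol rule, 0 passed by edgeR in any comparison, and 6, 4 and 0 had an unadjusted p under 0.05 for vorinostat against transgenic vehicle, vorinostat against wildtype and transgenic against wildtype vehicle. The shares of all 17009 genes were 14.4%, 12.6% and 1.33%. In the same order, 20, 22 and 20 of the 37 were positive, against 50.9%, 51.7% and 50.1% of all genes. All 5 core assembly chaperones were positive for vorinostat against wildtype and 4 of 5 against transgenic vehicle, and of 7 further parts of or partners of the regulatory particle 6 were positive in each. Among the smallest p of the pathway were Txnl1, a thioredoxin-like partner of the regulatory particle, at 0.18 (SE 0.0648; edgeR adjusted p = 0.345) and Uba6, a ubiquitin activating enzyme, at 0.22 (SE 0.0802; edgeR adjusted p = 0.345) for vorinostat against transgenic vehicle. Against wildtype vehicle Uba6 was at 0.26 (SE 0.0782), Ecpas, a scaffold that binds the proteasome, at 0.14 (SE 0.0538) and Psme4, an activator that caps the core, at 0.16 (SE 0.0613), each with an edgeR adjusted p of 0.384. For transgenic against wildtype vehicle the inhibitor Psmf1 was at -0.059 (SE 0.0378) and Midn, which takes proteins to the proteasome without ubiquitin, at 0.11 (SE 0.0982).

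In the 4 libraries set apart, 8 of these 37 genes lay above all other 24 and 5 below, against 9.99% and 11.2% of all genes. Above were the core chaperones Pomp, Psmg2 and Psmg4, the regulatory subunit Sem1, its partners Uchl5, Usp14 and Txnl1, and the ubiquitin fusion gene Rps27a. Below were Nfe2l1, the transcription factor of proteasome genes, Ddi2, the protease that activates it, the shuttle factor Ubqln2, the ubiquitin activating enzyme Uba1 and Midn. These 2 sets were named after their values were seen. Nfe2l1 had 289 to 353 CPM in the 4 libraries, against 375 to 406 in the other 24, a mean log2 difference of -0.31, where most subunit genes were higher. Its transcript has a GC content of 54.4%.

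Promoters of the members were described as well. RefSeq promoter sequences (GRCm38.p6, 250 bases before to 50 after the start) were matched for 32 of the 39 members. Letters were searched on both strands: CCAAT, bound by NF-Y, TGACNNNGC, the core of the antioxidant response element to which Nfe2l1 binds, the NRF1 core, CCGGAAG, the core of the ETS motif, AAGATGGCG, the core of the YY1 motif, and TATAAA, the TATA box. The NF-Y letters CCAAT were found in 13 of 32 members (40.6%) against 41.1% of all 27025 genes in the table, and the antioxidant core in 5 (15.6%) against 14%. The NRF1 core is that of nuclear respiratory factor 1, and is a different motif from the antioxidant core to which Nfe2l1 binds. This NRF1 core was in 6 members (18.8%) against 5.19%. The ETS core was in 10 (31.2%) against 9.93%, 9 of 17 regulatory and 1 of 15 core genes. The YY1 core was in 2 (6.25%) against 1.64%, and TATAAA in 4 (12.5%) against 15.7%. Members were not compared with genes of like promoter GC content, so a higher share of a motif is not shown to be particular to them. Promoters of 4 genes are shown for the members with the largest differences between libraries (Psmc6, Psma4), a small p (Psma3) and the least variable level (Psmd2), with capitals for the motifs.
Psmc6, chr14:45329574-45329873, + strand: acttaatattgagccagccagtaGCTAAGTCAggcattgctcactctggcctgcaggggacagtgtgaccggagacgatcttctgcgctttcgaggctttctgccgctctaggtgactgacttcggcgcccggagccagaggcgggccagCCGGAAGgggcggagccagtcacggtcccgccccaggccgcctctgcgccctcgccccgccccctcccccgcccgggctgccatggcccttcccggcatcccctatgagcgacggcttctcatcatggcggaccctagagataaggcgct
Psma4, chr9:54950609-54950908, + strand: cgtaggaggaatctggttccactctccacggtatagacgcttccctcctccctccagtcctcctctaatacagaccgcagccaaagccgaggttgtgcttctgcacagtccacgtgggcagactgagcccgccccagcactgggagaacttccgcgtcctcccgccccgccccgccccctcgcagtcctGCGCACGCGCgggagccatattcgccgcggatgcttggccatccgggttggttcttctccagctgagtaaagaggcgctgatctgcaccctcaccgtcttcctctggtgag
Psma3, chr12:70974373-70974672, + strand: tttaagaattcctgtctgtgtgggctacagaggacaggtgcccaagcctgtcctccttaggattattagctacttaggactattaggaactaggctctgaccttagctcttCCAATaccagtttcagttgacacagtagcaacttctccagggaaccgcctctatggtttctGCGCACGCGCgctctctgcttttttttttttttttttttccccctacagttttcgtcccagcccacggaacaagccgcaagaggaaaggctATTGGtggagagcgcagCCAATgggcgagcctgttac
Psmd2, chr16:20651402-20651701, + strand: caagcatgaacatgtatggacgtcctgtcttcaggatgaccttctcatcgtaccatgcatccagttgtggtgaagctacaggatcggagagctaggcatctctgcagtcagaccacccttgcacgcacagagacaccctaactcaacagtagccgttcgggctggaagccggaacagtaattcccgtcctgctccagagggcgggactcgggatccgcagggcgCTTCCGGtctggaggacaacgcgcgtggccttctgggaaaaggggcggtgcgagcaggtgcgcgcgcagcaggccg
In Psmc6 the capitals mark the antioxidant core, read on the other strand, and the ETS core, in Psma4 the NRF1 core, in Psma3 the NRF1 core and 3 CCAAT boxes, and in Psmd2 the ETS core on the other strand. None of the marked motifs overlap. A match is a description of letters and was not tested as a site.

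The authors' deposited table of model-adjusted expression, whose terms and log base are not given in the sources used here and which was read as log2, listed all 39 members. In the authors' deposited table, 28 of 39 members were higher in vorinostat than in transgenic vehicle, against 52.6% of its 18014 genes, and 34 higher than in wildtype, against 58.5%. For transgenic against wildtype vehicle, 33 of 39 members were positive in the authors' deposited table, against 59.9% of its genes, where 6 of 37 were with the counts. The median differences of members in the authors' deposited table were 0.0479, 0.0646 and 0.0358. The 4 libraries set apart were higher for 35 of 39 members in the authors' deposited table, against 58.5% of its genes. The members' median difference in the authors' deposited table was then 0.146, against 0.0311 over all its genes. For 0 members in the authors' deposited table did all 4 lie above all other 24, where 0.105% of its genes did.

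In the authors' deposited table of coexpression modules, 18 of the 39 members (46.2%) were in the module named black, which holds 10.7% of its genes, and 9 (23.1%) in the module named yellow, which holds 6.20%. The black module had 10 core and 8 regulatory genes, among them Psma3 and Psma4. Psmc6 was in the lightcyan module, Psmd5 in purple, Psmd3 and Psmd11 in cyan and Psmd2 in blue. Such modules group genes by shared expression, so membership is no measure independent of the correlations given above.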

How the data were processed

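Gene-level counts of whole reads were deposited by the authors for 28 libraries of polyadenylated RNA (50 bp single-end reads, a kit that does not keep the strand). The submitters' processing notes name STAR 2.5.2b, Subread 1.5.1 with featureCounts, FastQC 0.11.5 and the build mm10. Deposited with them were adjusted expression on a log scale, read as log2, and a score of membership in each coexpression module, both from the authors.

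Symbols were found for 48349 of 48709 identifiers. Libraries held 20230085 to 33191857 counts. After a filter (minimum count 10, minimum total 15), 17009 genes were tested with edgeR 4.0.16 in R 4.3.3 (TMM factors, robust quasi-likelihood fit of 3 group means), with Benjamini-Hochberg adjustment over all of them at 0.05. Standard errors come from the log2 fold change and F. Log2 CPM used a prior count of 2. The test was checked on simulated data. Alternatives used DESeq2 1.42.0, limma 3.58.1 voom, other scaling and filters, blocks, covariates and left-out libraries. Reads shared with other genes were estimated as identical 50-base windows of annotated transcripts. Genes given in full were, for each comparison, the 3 core and 3 regulatory members of smallest p, the catalytic, inducible, tissue-restricted and chaperone genes, and the 3 extremes of level and of spread, and up to 3 pathway genes per comparison. Members, lists and the 4 libraries set apart were chosen with earlier results of these data known. Values of 2 of these pathway genes are not reported here.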

Additional observations from a re-analysis of the deposited data

Results flagged for a closer look

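Of 78 sets of values (1 gene or particle in 1 group), 21 held a library flagged by Dixon's criterion. Its gap to its nearest neighbour was large against the range of its group. For independent sets not picked from the data, chance gives about 1 in 20. These sets share libraries and some of their genes were picked from these data, so that rate is no measure of chance here. Wildtype vehicle 2, with a high mitochondrial share, was the flagged library in 14, always as the highest. Its CPM values were 93.44 for Psma1 (next highest 73.41), 74.64 for Psma2 (55.5), 32.27 for Psma3 (24.98), 72.93 for Psma4 (56.62), 16.79 for Psma5 (13.58) and 98.29 for Psma6 (71.39). In the beta rings it had 69.43 CPM for Psmb2 (58.1), 89.63 for Psmb6 (74.81) and 81.19 for Psmb7 (63.3). Of regulatory genes it had 171.3 CPM for Psmc3 (145.8), 92.68 for Psmc6 (68.52) and 82.45 for Psmd13 (72.81). Its core genes held 0.1068% of counts (next 0.08261%) and its regulatory genes 0.2025% (0.1763%).

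Transgenic vehicle 5 was the highest of its group in 6. It had 34.58 CPM for Psmb10 (next 28.53), 80.47 for Psmb6 (68.57), 165.1 for Psmc5 (132.7) and 14.52 for Psmd10 (12.71), and its core genes held 0.0926% of counts (0.08146%) and its regulatory genes 0.1878% (0.1753%). Wildtype vehicle 5 had 26.68 CPM for Psmd9, against 23.92 in the next. The cause was not tested.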

How the results depend on the processing

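The number of called members was 0 under every alternative run. Without the 4 libraries with a high mitochondrial share, 7 members were positive for vorinostat against transgenic vehicle (median -0.0427), 9 for vorinostat against wildtype and 26 for transgenic against wildtype vehicle. With the mitochondrial share as a covariate these were 16, 14 and 14. Without the 4 and transgenic vehicle 5, chosen after seeing the data, they were 9, 9 and 13. For transgenic against wildtype vehicle the count was 3 with Xist as a covariate and 11 after the GC and length correction, also chosen after seeing the data. Psma4 turned negative for vorinostat against transgenic vehicle without the 4 libraries (-0.0342). It was at -0.0068 when transgenic vehicle 5 was left out together with them. Psmd3 turned positive for vorinostat against wildtype after the correction (0.000838). Leaving out 1 library at a time gave 2 to 25 positive members for transgenic against wildtype vehicle. The causes were not tested.

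Deviations of same-numbered libraries correlated at -0.339 to 0.408 for title numbers and -0.213 to 0.232 for description numbers. Libraries of different numbers were not compared, so these values cannot decide whether replicate numbers pair the samples. With a replicate block by title number the count of positive members for transgenic against wildtype vehicle was 2. With either block 0 members were called. Over all genes the title block called 1 gene for vorinostat against wildtype vehicle, against 0 without it.

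Counts limit Psma8, Psmb11, Psmb8 and Psmb9 most, and shared sequence limits Psmb5 and Psma5.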
